A study of Mus musculus with 2 samples.

Results

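Intermediate filaments are cytoskeletal polymers whose subunits differ between the cell types of the brain. The 7 genes described here encode the subunits Nes (nestin), Vim (vimentin), Gfap (glial fibrillary acidic protein), Ina (alpha-internexin) and the light, medium and heavy neurofilament proteins Nefl, Nefm and Nefh. They were taken by name, 7 of the 31053 genes in the E18 matrix and of the 31054 in the P2 matrix, and all 7 were present in both. Together they held 0.0419% of the UMIs of the E18 library and 0.0725% of those of the P2 library, a UMI being a counted RNA molecule.

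The study followed the mouse dorsal ventricular-subventricular zone (V-SVZ), the germinal layer that lines the lateral ventricles, around birth. The embryonic day 18 (E18) library was made from CD1 mice, an outbred stock, and held dorsal V-SVZ with the overlying cortex. The postnatal day 2 (P2) library was made from Emx1Cre;R26Eyfp fl/fl mice and held dorsal and lateral V-SVZ without the cortex. In those mice Cre is driven by Emx1, a gene of dorsal telencephalic progenitors, so that cells descending from them carry an EYFP reporter. Both suspensions were dissociated with papain and sorted as propidium iodide-negative, DRAQ5-positive cells, that is, intact nucleated cells. With 1 library per age, age, dissection, mouse line and library cannot be told apart, no test between ages was possible, and every interval below covers counting error only. How many animals went into each suspension is not stated in the labels.

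Filtering kept 2496 cells at E18 and 2296 at P2, whose median depths were 6574 and 12525 UMIs. The libraries shared 0 cell barcodes. Each library was clustered without the 7 members and 8 other filament genes, into 16 clusters at E18 and 21 at P2, and clusters were named from marker lists. A class name below means cells like that type by its markers, and the names were rebuilt here. Of the P2 inhibitory intermediate progenitors, most came from a cluster of 161 cells led by the DNA replication genes Mcm3, Mcm2 and Uhrf1, with 0 markers of the class among its top 10 genes. The same count was 0 in 3 of the 5 neuroblast clusters, so both names rest on summed marker levels. "Stem cell" stands for radial precursors and neural stem cells: 92 cells at E18 and 54 at P2, in which all 12 markers of the list were detected. At P2 these 54 came from a cluster of 79 cells, the rest being moved out by markers of other types. In that library 26 of the 35 ependymal cells were placed by such markers, and 9 formed their own cluster. At E18 0 cells were moved to the ependymal class. Levels are UMIs of a gene summed over a class per 1000000 UMIs of that class, written CPM, with an exact Poisson 95% interval. The stem cell markers summed to 34152 CPM in the E18 stem cells and 26827 CPM in the P2 ones. UMI levels are not compared between genes.

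Filament subunits form dimers and then ropes without polarity, and which subunits a cell makes changes as it matures. Neural stem cells contain nestin and vimentin, astrocytes and many postnatal stem cells add GFAP, and neurons replace these first with alpha-internexin and then with the neurofilament triplet, which fills axons and sets their calibre. For this reason nestin and GFAP antibodies are widely used to mark neural stem cells and astrocytes, and neurofilament light protein to mark axons.

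In the annotation of the build that the labels name (mm10, the UCSC name of GRCm38), the members lie on 5 chromosomes. Nes spans chr3:87971078-87980451 on the plus strand and Vim chr2:13573927-13582826 on the plus strand. Gfap spans chr11:102887336-102900912 on the minus strand, and Nefh lies on the same chromosome at chr11:4938754-4948064, also on the minus strand. Ina spans chr19:47014698-47025327 on the plus strand. Nefl lies at chr14:68083863-68089095 on the plus strand, next to Nefm at chr14:68082590-68124846 on the minus strand. The shorter of the 2 annotated Nefm transcripts lies 30187 bases beyond the end of Nefl, but the longer one shares 1108 exon bases with Nefl on the opposite strand. The labels do not say whether the counting used strand, so reads from that overlap cannot be assigned to Nefl or Nefm with certainty.

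The sequences before the start sites of Nes, Gfap and Ina are shown. They come from the RefSeq promoter table (GRCm38.p6), in which 4 of the 7 genes were matched. The 3 shown are those whose window kept enough bases before an annotated exon of the gene. They are written 5′ to 3′ on the strand of the gene, with each CG dinucleotide in capitals. The Nes window is chr3:87970843-87971077 (plus strand), the Gfap window chr11:102897201-102897450 (minus strand) and the Ina window chr19:47014431-47014680 (plus strand). Their starts are RefSeq starts, which differ from the ends of the gene spans above. The Nes window was cut from 250 to 235 bases where an annotated exon begins, and the Gfap window lies inside the Gfap span.
Nes: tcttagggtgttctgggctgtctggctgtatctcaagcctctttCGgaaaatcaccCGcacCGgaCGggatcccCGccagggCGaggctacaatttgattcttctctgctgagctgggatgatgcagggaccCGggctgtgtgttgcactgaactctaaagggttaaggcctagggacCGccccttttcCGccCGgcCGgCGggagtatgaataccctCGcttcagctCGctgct
Gfap: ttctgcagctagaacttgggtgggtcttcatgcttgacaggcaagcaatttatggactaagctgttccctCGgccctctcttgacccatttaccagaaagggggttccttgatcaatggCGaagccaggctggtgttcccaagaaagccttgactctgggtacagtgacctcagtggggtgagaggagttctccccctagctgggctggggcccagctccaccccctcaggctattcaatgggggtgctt
Ina: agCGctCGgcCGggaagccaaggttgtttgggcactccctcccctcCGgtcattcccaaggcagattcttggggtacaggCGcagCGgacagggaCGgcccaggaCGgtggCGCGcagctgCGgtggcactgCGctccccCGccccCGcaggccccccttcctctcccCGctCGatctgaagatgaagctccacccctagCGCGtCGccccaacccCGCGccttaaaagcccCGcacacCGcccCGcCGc
The Ina window held 25 CG dinucleotides and the Nes window 14, where the median over 27025 mouse promoter windows of 250 bases was 6. The Gfap window held 2, and 29.6% of all windows held as few. Of the 4 motifs searched on both strands, GGGCGG was found on the minus strand of the Nes and Ina windows. For Nes it began 73 and 62 bases before the RefSeq start, which lies beyond the end of the printed window. For Ina it began 111 and 12 bases before the RefSeq start. GGGCGG occurs in 32.9% of all windows. TATAAA (13% of all windows), CCAAT (34.5%) and TTCNNNGAA (7.18%) had no match in these 3 windows, and Gfap had none of the 4.

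Nes was highest in the stem and glial classes. At E18 its level was 157 CPM (126 to 193) in stem cells and 137 CPM (115 to 162) in cycling cells, intervals that overlap, followed by 52.3 CPM in oligodendrocyte precursors and 22.3 CPM in excitatory intermediate progenitors. Neuronal classes of that library lay between 0 and 14.5 CPM. The Cajal-Retzius cells, with 9 cells and 1 Nes UMI, reached 13.7 CPM. Lhx6 interneurons were the class at 0, with no Nes UMI in 168 cells, which allows a share of up to 1.79% of cells with a UMI. At P2, maturing astrocytes (281 CPM, 251 to 314) and stem cells (259 CPM, 228 to 293) stood above all other classes. One astrocyte held 58 of the 317 astrocyte UMIs. Ependymal cells (140 CPM), inhibitory intermediate progenitors (125 CPM) and cycling cells (88.3 CPM) came next, and striatal projection neurons were lowest at 7.42 CPM. The 43 P2 microglia, which belong to another lineage, had 98 Nes UMIs in 23 cells (110 CPM, 89.0 to 134), with at most 12 in 1 cell. These microglia also had 189 Vim UMIs (212 CPM), 81 of them in 1 cell and 87.3% in the highest 5 cells. Of their 8 Ina UMIs 7 were in 1 cell, and they had 0 of Gfap, Nefl, Nefm and Nefh. Free RNA as the source was not tested.

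Vim, the filament of radial glia and of many mesenchymal cells, had the same leading classes. At E18 the order was stem cells at 2073 CPM, cycling cells at 948 CPM, oligodendrocyte precursors at 581 CPM and excitatory intermediate progenitors at 288 CPM, with no overlap between the intervals of these 4 classes. The cortical excitatory neurons and Lhx6 interneurons lay between 8.53 and 18.6 CPM, and caudal interneurons at 96.3 CPM. After each cell was thinned to 3000 UMIs, 95.2% of E18 stem cells and 1.65% of upper-layer neurons had a Vim UMI. In whole cells these shares were 89 of 92 and 60 of 1001 cells. At P2, stem cells (1521 CPM) and ependymal cells (1486 CPM) had overlapping intervals, and maturing astrocytes followed at 1099 CPM. Vim was also present in the P2 neuronal lineage: 568 CPM in inhibitory intermediate progenitors, 290 CPM in inhibitory neuroblasts and 279 CPM in caudal interneurons, against 28.3 CPM in striatal projection neurons. The neuroblasts were not uniform. Their 5 clusters ran from 797 CPM of Vim and 102 CPM of Ina in the cluster led by Ccnd2 and Sp8 to 13.3 CPM of Vim and 390 CPM of Ina in the largest, led by Foxp2 and Syt1. Over all 822 neuroblasts, cells with an Ina UMI had a Vim UMI less often, 40.3% against 58.0% of cells without Ina. At a fixed depth of 3000 UMIs per cell the shares were 19.5% and 40.3%. Whether this holds inside each cluster was not tested.

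Gfap was concentrated in stem cells. Stem cells made up 3.69% of the E18 cells and held 59.6% of the Gfap UMIs of that library, and 2.35% of the P2 cells held 51.8% of those at P2. The E18 stem cells had 53 UMIs in 31 of 92 cells, a level of 95.5 CPM (71.5 to 125), and no more than 5 UMIs in any cell. The P2 stem cells had 87 UMIs in 29 of 54 cells, 89.5 CPM (71.6 to 110). Thinned to 3000 UMIs, 19.3% of E18 and 25.5% of P2 stem cells had a Gfap UMI. Of the other 36 E18 UMIs, 16 lay in excitatory intermediate progenitors (27.4 CPM, 13 of 99 cells) and 14 in cycling cells (13.9 CPM, 7 of 105 cells). In the P2 maturing astrocytes the level was 33.7 CPM, but 21 of the 38 UMIs were in 1 cell and 9 of 51 cells had any. Classes that should lack Gfap gave the background. At P2 newborn excitatory neurons had 4 UMIs (1.53 CPM), neuroblasts 3, caudal interneurons 2, and Lhx6 interneurons and striatal neurons 1 each. A Gfap UMI was found in 0 of 81 P2 oligodendrocyte precursors, which allows a share of up to 3.70%, 0 of 43 microglia (up to 6.98%) and 2 of 1001 E18 upper-layer neurons. Median depths were 18619.5 UMIs in the P2 stem cells and 15521 in the P2 oligodendrocyte precursors.

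All 31 E18 and all 29 P2 stem cells with a Gfap UMI also had a Vim UMI. Since 89 of 92 and 53 of 54 stem cells had Vim in any case, this overlap is close to what those shares alone give. At E18, Vim was 2329 CPM (2111 to 2563) in the stem cells with Gfap and 1951 CPM (1812 to 2097) in those without, and Nes 172 and 149 CPM with overlapping intervals. One E18 cell with Gfap held 56 of the 419 Vim UMIs of its group, and the level without it was not computed. At P2 both Vim and Nes had overlapping intervals. Nes was 253 CPM with and 266 CPM without Gfap, and Vim 1537 CPM and 1501 CPM. Hopx, a gene of outer radial glia and quiescent stem cells, was 889 CPM (757 to 1038) in the E18 cells with Gfap and 496 CPM (427 to 572) in those without. At P2 it was 205 CPM and 109 CPM. Nfia, a transcriptional regulator of Gfap, was 778 CPM and 509 CPM at E18 and 669 CPM and 734 CPM at P2. It thus differed in the E18 cells and had overlapping intervals at P2. The regulators Sox9 and Stat3 had overlapping intervals at both ages. Sox9 was 428 and 352 CPM at E18 and 573 and 556 CPM at P2. Stat3 was 27.8 and 21.3 CPM at E18 and 37.0 and 23.2 CPM at P2. Aqp4, the water channel of astrocytes, was 200 CPM with and 113 CPM without Gfap at P2, and 33.4 and 37.3 CPM at E18. Cells without a Gfap UMI may still express it, since the median stem cell with Gfap had 1 UMI at E18 and 2 UMIs at P2.

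**Figure D1:**
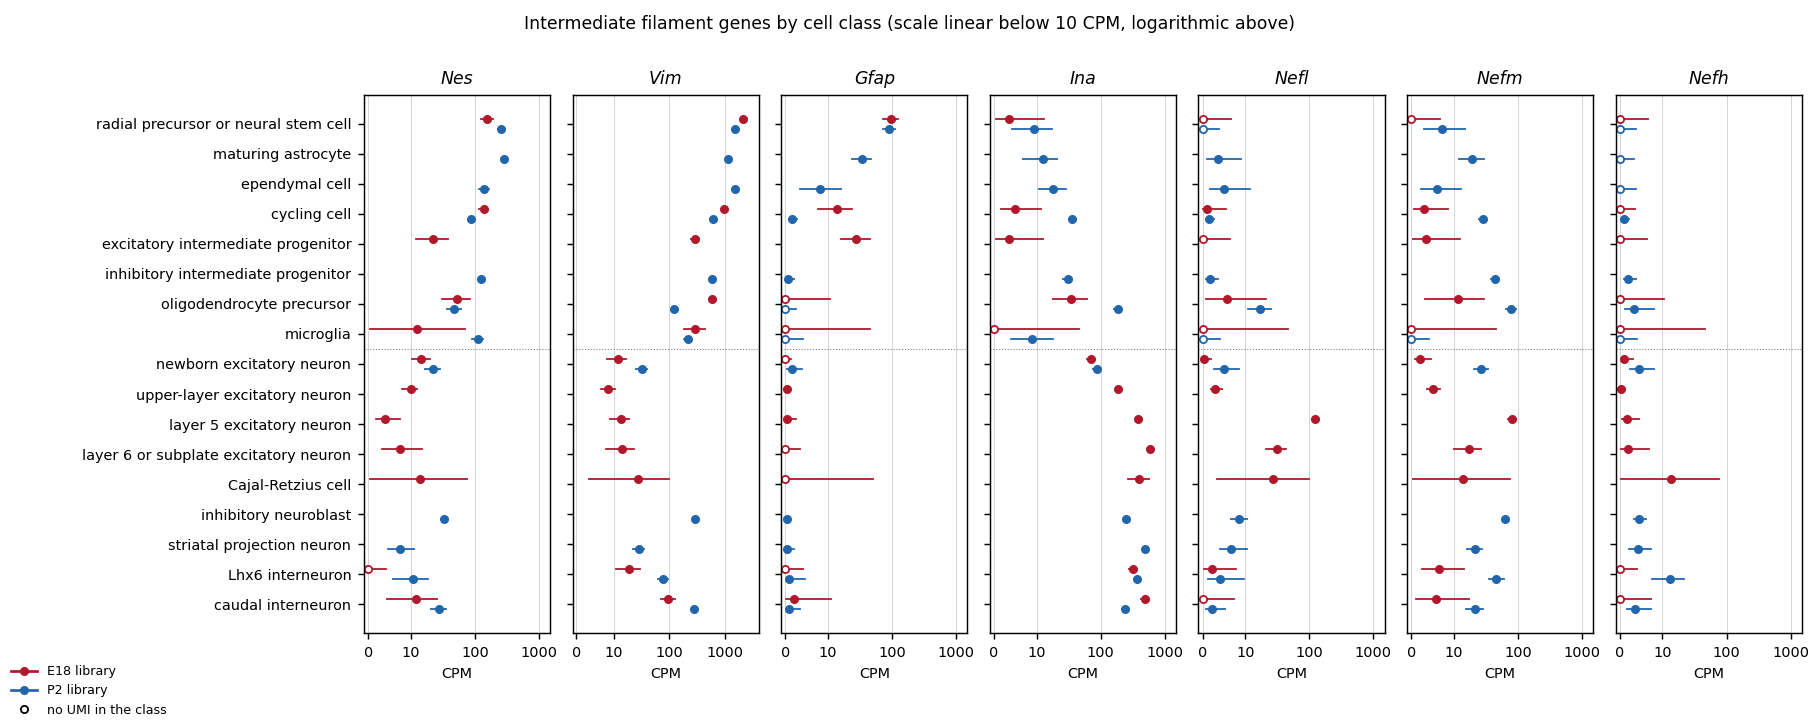
Level of each filament gene (CPM, linear below 10 and logarithmic above) in every class, with exact Poisson 95% intervals; E18 in red, P2 in blue, open points where the class had no UMI. Nes, Vim and Gfap are highest above the dotted line, in stem, glial and progenitor classes, and Ina below it, in neurons, with 185 CPM of Ina in P2 oligodendrocyte precursors above the line.

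Ina was found in every neuronal class of both libraries. At E18 it was highest in layer 6 or subplate neurons at 583 CPM (538 to 631), with caudal interneurons at 491 CPM (432 to 556), then Cajal-Retzius cells at 397 CPM and layer 5 neurons at 379 CPM. Neighbours among these 4 classes had overlapping intervals. Lhx6 interneurons at 316 CPM, upper-layer neurons at 185 CPM and newborn excitatory neurons at 70.2 CPM followed, each below the interval of the class before it. Stem cells had 2 Ina UMIs in 92 cells (3.60 CPM). At P2, striatal projection neurons led at 496 CPM (470 to 522), then Lhx6 interneurons at 367 CPM, inhibitory neuroblasts at 252 CPM and caudal interneurons at 238 CPM. Newborn excitatory neurons were at 86.0 CPM. Stem cells had 9 UMIs (9.25 CPM) and microglia 8 (8.95 CPM), 7 of those 8 in 1 cell. Among the non-neuronal classes of P2, oligodendrocyte precursors had the highest Ina level, 185 CPM in 68 of 81 cells, followed by cycling cells at 36.1 CPM and inhibitory intermediate progenitors at 30.4 CPM.

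Nefl and Nefm, which copolymerise in axons, were concentrated in 1 class at E18. The 175 layer 5 neurons, the class that includes the corticofugal projection neurons with long axons, made up 7.01% of the cells and held 81.6% of the Nefl UMIs and 69.0% of the Nefm UMIs. Nefl was 124 CPM (110 to 140) there, from 288 UMIs in 57 cells, with 59 UMIs in 1 cell and 45.8% of the UMIs in the highest 5 cells. Without the highest cell the level was 100 CPM. Nefm was 79.9 CPM (68.8 to 92.2), from 185 UMIs in 70 cells, with at most 29 in 1 cell. Nefl and Nefm were among the 10 leading genes of this cluster although neither took part in the clustering. Layer 6 or subplate neurons were next at 31.1 CPM of Nefl and 16.9 CPM of Nefm, and upper-layer neurons had 3.01 and 5.02 CPM. Stem cells had no UMI of either in 92 cells, which allows a share of up to 3.26%. In layer 5 neurons the 2 genes were found together in 34 cells. Of the cells with Nefm 48.6% had Nefl, against 21.9% of those without, and at 3000 UMIs per cell the shares were 32.0% and 13.4%.

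At P2 the highest class differed. Nefm was 78.5 CPM (64.8 to 94.2) in oligodendrocyte precursors, 61.8 CPM (56.8 to 67.1) in inhibitory neuroblasts, 46.2 CPM in Lhx6 interneurons and 44.1 CPM in inhibitory intermediate progenitors, each interval overlapping that of its neighbour. Stem cells had 7 Nefm UMIs (7.20 CPM), and the 43 microglia none. By class Nefl was at most 17.1 CPM, again in oligodendrocyte precursors (25 UMIs in 19 of 81 cells), and 8.48 CPM in neuroblasts. Single clusters reached higher levels, 96.1 CPM of Nefm in a neuroblast cluster of 184 cells and 23.1 CPM of Nefl in a striatal cluster of 31 cells, the latter from 6 UMIs. Layer 5 neurons, where both were highest at E18, were not a class of the P2 library, whose cortex had been removed. Nefh, the subunit that accumulates last, was near its limit of detection: 13 UMIs in the kept E18 cells and 112 in the kept P2 cells. Its highest P2 level was 13.2 CPM (7.55 to 21.4) in Lhx6 interneurons, from 16 UMIs in 7 of 84 cells, and it had no UMI in stem cells of either library.

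Each neuronal class was set against the stem cells of its own library, 11 contrasts in all. A gene with 10 or more UMIs over both groups counted as different when its level was at least 2-fold higher or lower. Nes, Vim and Gfap were lower and Ina was higher past 2-fold in all 11, and every interval excluded 0. In layer 5 neurons, where 20.3% of all 10707 genes tested were past 2-fold higher and 22.9% past 2-fold lower, Ina was higher by 6.72 on the log2 scale (interval 4.86 to 9.76). Vim had a log2 ratio of -7.28 there (-7.84 to -6.76) and Nes had a log2 ratio of -5.33. With a floor of 3 UMIs put in for the stem cells, which had none of either, Nefl was 23.0-fold and Nefm 14.8-fold higher. Vim and Nes differed least in P2 neuroblasts, with a background of 15.9% higher and 23.5% lower: log2 ratios were -2.39 for Vim, -2.96 for Nes and 4.77 for Ina. The other E18 classes had backgrounds, higher and lower, of 20.5% and 18.2% (newborn), 16.9% and 21.9% (upper-layer), 24.1% and 19.9% (layer 6 or subplate), 22% and 20.8% (Lhx6) and 20.7% and 20.2% (caudal). The other P2 classes had 17.4% and 21% (newborn), 17.8% and 23.5% (Lhx6), 16.9% and 23.3% (caudal) and 17.8% and 25.2% (striatal). Of the 77 values, 62 had 10 or more UMIs and 60 a ratio with a direction, and 56 were past 2-fold, 23 higher and 33 lower. Nefm was past 2-fold higher in 7 contrasts, and under every alternative that gave a value in layer 5 neurons, neuroblasts and P2 Lhx6 interneurons. The calls in layer 6 or subplate, P2 newborn, caudal and striatal neurons each ended under at least 1, and those of caudal interneurons under 6. Nefl was past 2-fold higher in 4 contrasts, of which the layer 5 call held throughout and those of layer 6 or subplate neurons, neuroblasts and striatal neurons did not. Nefh was past 2-fold higher in 1, P2 Lhx6 interneurons, where it was 4.28-fold higher against the 3-UMI floor. Without the cell with 7 UMIs that class kept 9, under the minimum of 10.

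The remaining classes were compared with stem cells in the same way. E18 cycling cells differed by -0.19 for Nes (-0.59 to 0.21) and were lower in Vim (log2 ratio -1.13) and Gfap (-2.78), with backgrounds of 13.5% higher and 14.4% lower. P2 cycling cells were lower in Nes (-1.55), Vim (-1.31) and Gfap (-5.91) and higher in Ina and Nefm (both 1.96), with backgrounds of 13.7% higher and 24.6% lower. P2 microglia were lower in Nes (-1.24), Vim (-2.85) and Gfap, where 36.6% of all genes were lower and 17.1% higher. E18 intermediate progenitors, with 17.8% of genes past 2-fold lower and 12.5% higher, were lower in Nes (log2 ratio -2.81), Vim (-2.85) and Gfap (-1.80), while Ina had 2 UMIs in each class. P2 inhibitory intermediate progenitors were lower in Nes (-1.05), Vim (-1.42) and Gfap (-7.06) against a background of 22.4%, and higher in Ina (1.72) and Nefm (2.61) against 13.8%. P2 ependymal cells, of which 26 of 35 had clustered elsewhere and were placed by markers, had a Vim log2 ratio of -0.03 to stem cells (-0.14 to 0.07). They had less Gfap (-3.48, background 10.2% lower and 17.1% higher). P2 maturing astrocytes differed from stem cells by 0.12 for Nes (-0.13 to 0.36) and -0.47 for Vim. They were lower in Gfap with a log2 ratio of -1.41 (background 8.83% lower) and higher in Nefm by 1.44 (9.45% higher). These astrocytes also held the cycling marker Mki67, at 222 CPM in those with a Gfap UMI and 137 CPM in those without. In P2 stem cells it was 1.85 and 2.32 CPM. The part of cycling in these ratios was not tested. Oligodendrocyte precursors had less Nes and Vim and more Ina than stem cells at both ages. At E18 the log2 ratios were -1.58 for Nes, -1.84 for Vim and 3.27 for Ina (12 UMIs against 2), against backgrounds of 18.9% lower and 8.98% higher. At P2 Nes had a log2 ratio of -2.46, Vim -3.64, Ina 4.32 and Nefm 3.45 to stem cells, against backgrounds of 14% lower and 17.7% higher.

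**Figure D2:**
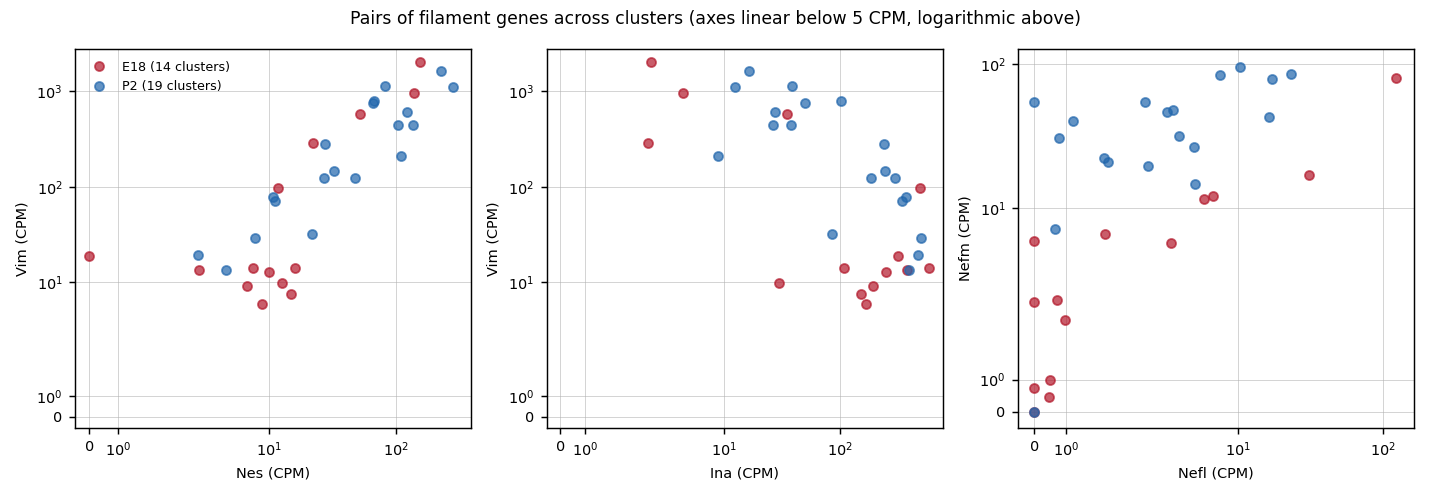
Levels of 3 pairs of filament genes (CPM, axes linear below 5 and logarithmic above), one point per cluster of 20 or more cells, E18 in red (14 clusters) and P2 in blue (19). Nes and Vim increase together, Ina and Vim run in opposite directions, and the E18 point with 124 CPM of Nefl and 79.9 CPM of Nefm is the layer 5 cluster.

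Across the 14 E18 and 19 P2 clusters with 20 or more cells, which share a library within an age and differ in median depth (4106 to 12693 UMIs at E18, 7624.5 to 30883.5 at P2), the log levels of Nes and Vim had a correlation of 0.89 at both ages. Nes and Ina had -0.81 at E18 and -0.93 at P2, and Vim and Ina -0.75 and -0.78. Nefl and Nefm had 0.95 and 0.62. At E18 both reached 50 CPM in 1 cluster only, that of layer 5 neurons, and Nefl was 0 in 4 clusters. Gfap followed Vim with 0.78 at E18 and 0.53 at P2. It reached 50 CPM in 1 cluster of each library and was 0 in 7 E18 and 6 P2 clusters. How far the correlations of these 3 genes, with each other or with other genes, depend on the single high cluster was not tested. Over the 4750 genes compared, the genes with the pattern most like that of Nes were Phgdh, the first enzyme of serine synthesis, Gng5 and Acadl, each with a mean correlation of 0.93. For Vim they were Csrp1 (0.95), Notch1, the receptor that maintains progenitors (0.93), and Atf5 (0.92). For Gfap they were Sfxn5 (0.96), the thyroid hormone and organic anion transporter Slco1c1 (0.96) and Pbxip1 (0.94). For Ina they were Gpr27 (0.96), Ly6h (0.95) and Lrrc7 (0.95), a protein of the postsynaptic density. The neurofilament genes had looser partners, Pfkp for Nefl (0.78), Kcnmb4 for Nefm (0.71) and Tmem108 for Nefh (0.74). These correlations describe 33 clusters of 2 libraries, and clusters are not replicates.

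Between the libraries 6 classes could be compared, giving 42 values of which 30 had 10 or more UMIs. Of these, 20 were past 2-fold, 17 higher and 3 lower at P2, and 18 of the 20 intervals excluded 0. The share of all genes past 2-fold lower at P2 was 5.55% in newborn excitatory neurons, 11.5% in Lhx6 interneurons and 10.7% in caudal interneurons. In stem cells, where 21.4% of 9949 genes were past 2-fold higher and 6.61% lower at P2, the stem and glial filaments stayed within 2-fold. Nes was 259 CPM at P2 and 157 CPM at E18 (log2 ratio 0.73, 0.37 to 1.09), and the median over all genes was 0.23. Vim was 1521 CPM and 2073 CPM (-0.45, -0.56 to -0.33). Gfap was 89.5 CPM and 95.5 CPM (-0.09, -0.60 to 0.43). With cells thinned to 3000 UMIs Nes had a log2 ratio of 1.36 and passed 2-fold. With Leiden resolution 0.5 Gfap was higher at P2 (0.59) and with doublets kept lower (-0.61). Ina, from 9 UMIs against 2, had a log2 ratio of 1.36 with an interval from -0.91 to 4.61.

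**Figure D3:**
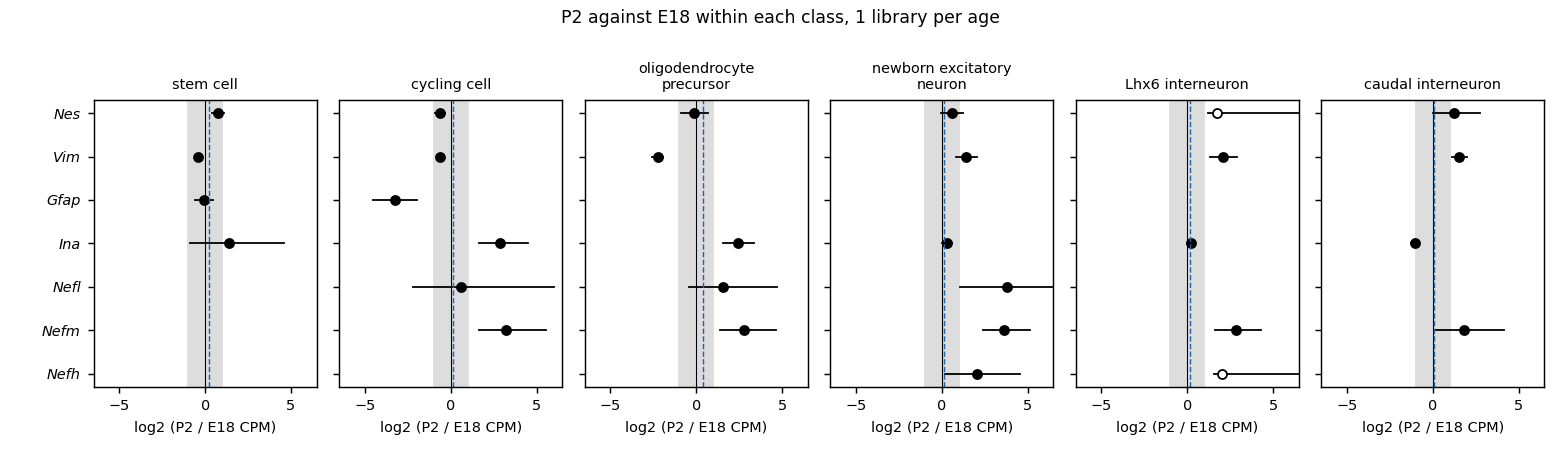
Log2 ratio of P2 over E18 level for each member with 10 or more UMIs in 6 classes, with exact 95% intervals for counting error (drawn to the edge of the panel where they go beyond it). Open points are ratios against the 3-UMI floor, the grey band is 2-fold, and the dashed line is the median of all genes. Nefm lies to the right of the band in each of the 5 classes where it is drawn, and Vim to the left of it in oligodendrocyte precursors.

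Nefm was higher at P2 in all 5 classes in which it could be compared, with log2 ratios of 3.24 in cycling cells (28.1 CPM against 2.98 CPM), 3.62 in newborn excitatory neurons (26.8 against 2.17), 2.81 in Lhx6 interneurons (46.2 against 6.58), 1.83 in caudal interneurons (21.0 against 5.90) and 2.76 in oligodendrocyte precursors (78.5 against 11.6). The E18 side of these ratios held 3 to 6 UMIs per class. The backgrounds of genes past 2-fold higher were 15.6%, 17.9%, 22.5%, 18.1% and 29.5% in that order. Under the alternatives that gave a value, the Nefm ratio in these 5 classes was never below 1.20. Nefl was higher in newborn excitatory neurons (13 UMIs against 1, 3.78, 1.04 to 9.19) and in oligodendrocyte precursors (25 against 2, 1.56, -0.45 to 4.68). Nefh was higher in newborn excitatory neurons (2.08) and was 4.02-fold higher against the 3-UMI floor in Lhx6 interneurons, 16 UMIs against 0. Of the 16, 7 were in 1 cell, and without it 9 remained, under the minimum of 10.

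Vim did not move in 1 direction. It was lower at P2 in oligodendrocyte precursors, 122 CPM in 81 cells against 581 CPM in 50 cells (log2 ratio -2.25, -2.55 to -1.95), where 5.91% of all genes were past 2-fold lower. It was higher in newborn excitatory neurons (31.7 against 11.9 CPM, 1.41), Lhx6 interneurons (78.4 against 18.6 CPM, 2.07) and caudal interneurons (279 against 96.3 CPM, 1.53). In Lhx6 interneurons the ratio was 0.73 with cells thinned to 3000 UMIs, which ended the call, and that of caudal interneurons reached 4.12 at Leiden resolution 2. Stem cells and cycling cells differed by less than 2-fold, cycling cells having a log2 ratio of -0.63. Against the 3-UMI floor Nes was 3.26-fold higher in P2 Lhx6 interneurons (13 UMIs against 0). In caudal interneurons Nes was higher by 1.22, a value that was 0.13 when every cell weighed the same. Ina was lower at P2 in caudal interneurons, 238 CPM against 491 CPM (-1.04, -1.27 to -0.82, with 10.7% of all genes past 2-fold lower). It was higher in oligodendrocyte precursors, 185 against 34.8 CPM (2.41), and in cycling cells, 36.1 against 4.97 CPM (2.86). The Ina call in caudal interneurons lay at the threshold and ended at -0.92 with a mitochondrial limit of 5% and at -0.98 when every cell weighed the same.

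Several of these classes differed in more than age. Among the E18 oligodendrocyte precursors, 14 cells had a UMI neither of Pdgfra, the receptor that marks these precursors, nor of Bcas1, a gene of newly forming oligodendrocytes, and their Vim level was 1197 CPM. Among the P2 ones, 8 cells had Bcas1 without Pdgfra and 4057 CPM of Mbp, a myelin protein, with 43.6 CPM of Vim and 174 CPM of Ina. Restricted to cells with a Pdgfra UMI, 73 at P2 and 34 at E18, Vim was 142 and 318 CPM (log2 ratio -1.16, -1.57 to -0.74). Ina had a ratio of 1.80 there and Nefm of 2.37. Of these cells, 64 at P2 and 13 at E18 also had Bcas1. Their Vim levels were 128 CPM (107 to 152) and 191 CPM (115 to 298). Those with Pdgfra alone, 9 and 21 cells, had 242 CPM (169 to 335) and 419 CPM (313 to 550). Within each split the Vim intervals of P2 and E18 overlapped. In cycling cells the stem cell markers summed to 11637 CPM at E18 and 1803 CPM at P2, and the inhibitory neuroblast markers to 479 CPM and 2110 CPM. There Gfap was 13.9 CPM at E18 and 1.49 CPM at P2 (log2 ratio -3.22, 14 UMIs against 11), beside a background of 10.7% lower. With cells thinned to 3000 UMIs no P2 cycling cell had a Gfap UMI, and fewer than 10 were left in all. The part of that shift in marker makeup in the Gfap, Ina and Nefm differences of cycling cells was not tested. The Lhx6 interneurons differed in regulators too, Nfib being 1792 CPM at P2 and 49.3 CPM at E18 (5.18). The caudal interneuron cluster was led by Adarb2, Dlx6os1 and Cxcl14 at E18 and by Nr2f2, Adarb2 and Neb at P2. At P2 its Vim (279 CPM) and Ina (238 CPM) intervals overlapped those of inhibitory neuroblasts (290 and 252 CPM). The part of this makeup in the Vim and Ina differences of caudal interneurons was not tested.

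The EYFP reporter allowed a comparison inside the P2 library, between cells with and without an EYFP UMI, in 9 contrasts. An EYFP UMI was found in 36 of 54 stem cells, 20 of 51 maturing astrocytes and 177 of 216 newborn excitatory neurons, and in 0 of 43 microglia, which allows a share of up to 6.98%. Stem cells and maturing astrocytes pooled had 92.1 CPM of Gfap with EYFP (109 UMIs in 56 cells) and 17.5 CPM without (16 UMIs in 49 cells), a log2 ratio of 2.40 (1.64 to 3.26). Over all 10837 genes tested in this contrast 5.63% were past 2-fold higher and 5.77% lower. Vim had a ratio of -0.003 (-0.11 to 0.11) and Nes of 0.34 (0.09 to 0.59). The pools differed in makeup, 36 stem cells and 20 astrocytes with EYFP against 18 and 31 without. In stem cells alone Vim was 1395 CPM (1309 to 1486) with EYFP and 1828 CPM (1673 to 1993) without. One stem cell without EYFP held 159 of the 515 Vim UMIs of that side, and the level without it was not computed. Among the stem cells, 24 of 36 with EYFP and 5 of 18 without had a Gfap UMI, levels of 114 and 28.4 CPM. With 18 cells without EYFP, under the minimum of 20 per side, stem cells alone were not among the 9 contrasts and have no background. Their median depths were 19285 UMIs with EYFP and 15515 UMIs without. Among maturing astrocytes the levels were 60.9 and 12.6 CPM (2.27, 1.12 to 3.61, background 5.08% higher and 5.89% lower), but without the cell with 21 UMIs the ratio was 1.27 with an interval from -0.47 to 3.19. The pooled ratio was 2.40 also without the highest cell of each side. With cells thinned to 3000 UMIs, which left 16 UMIs against 7, it was 0.84 (-0.52 to 2.36) and the call ended. Median depths of the pooled cells were 19435 UMIs with EYFP and 17655 UMIs without.

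**Figure D4:**
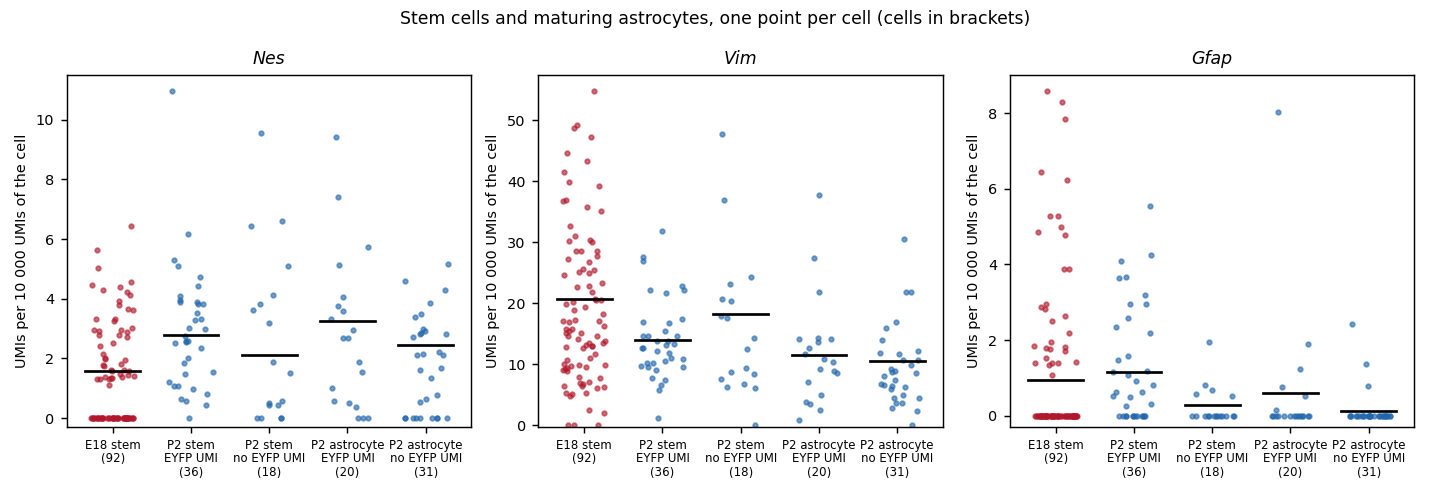
Nes, Vim and Gfap UMIs per 10 000 UMIs in single stem cells and maturing astrocytes, split by EYFP at P2 (cell numbers in brackets), bars at the value of the summed cells. Single-cell values of Nes, Vim and Gfap overlap between the EYFP groups. The summed Vim level of P2 stem cells is 1395 CPM (1309 to 1486) with EYFP and 1828 CPM (1673 to 1993) without. Gfap is at 0 in 13 of the 18 P2 stem cells without EYFP and in 12 of the 36 with it.

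Of the 63 values of this comparison 46 gave a ratio, and 9 were past 2-fold, 8 higher and 1 lower with EYFP, of which 5 intervals excluded 0. Gfap gave 3 of the 9, and Ina, Nes, Vim and Nefl the others. Ina was higher with EYFP in maturing astrocytes (11 UMIs against 3, 2.24, 0.32 to 4.72) and in the pooled cells (18 against 5, 1.48, -0.003 to 3.26). Of the 14 Ina UMIs of the astrocytes 7 were in 1 cell. Without the highest cell of each group the astrocyte ratio was 1.45, from fewer than 10 UMIs, and the call ended. Nes was higher in newborn excitatory neurons (55 against 2, 1.37) and striatal projection neurons (6 against 15, 1.07), with intervals that included 0. Cycling cells had 11 Gfap UMIs with EYFP and 0 without, 4.06-fold against the 3-UMI floor, with 3.03% of all genes past 2-fold higher and 3% lower. Without the highest cell 6 UMIs were left, under the minimum of 10, and thinned cells had none on either side. Newborn excitatory neurons with EYFP had more Vim (81 UMIs in 177 cells against 2 UMIs in 39 cells, 1.93, 0.03 to 5.00, background 6.75% higher and 6.31% lower), and the ratio was 0.29 at 3000 UMIs per cell. The EYFP-negative neurons of that class were shallower, with a median of 4745 UMIs against 13205. Neuroblasts, with a background of 2.52% higher and 4.47% lower, had none past 2-fold: with EYFP Vim was 354 CPM against 252 CPM (0.49) and Nefm 46.7 CPM against 70.7 CPM (-0.60). Inhibitory intermediate progenitors with EYFP had less Vim (-0.51, -0.63 to -0.40) and Nefm (-0.83, -1.26 to -0.40), both within 2-fold, with backgrounds of 3.98% higher and 3.08% lower. Caudal interneurons (3.88% higher, 4.09% lower) and oligodendrocyte precursors (3.25% higher, 5.83% lower) had no member past 2-fold either. Oligodendrocyte precursors had 188 CPM of Ina with EYFP and 181 CPM without (0.05, -0.30 to 0.41). The single lower value was Nefl in striatal projection neurons, 1 UMI against 18 (-1.78, -7.16 to 0.89), with backgrounds of 3.72% higher and 7.54% lower. Nefm was past 2-fold in none of the 9 contrasts as summed. With cells thinned to 3000 UMIs it was past 2-fold lower with EYFP in oligodendrocyte precursors (6 UMIs against 19, -2.06, -3.67 to -0.68) and inhibitory intermediate progenitors (5 against 18, -1.91, -3.69 to -0.42).

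Genes that act on filaments were taken as lists: other filament proteins, linkers, kinases, turnover factors, axonal motors and regulators of Gfap. In layer 5 neurons against stem cells 2 of 4 axonal transport motors were past 2-fold higher and none lower, Kif5a at 60.9 against 3.60 CPM (4.08) and Kif5c at 267 against 93.7 CPM (1.51). The median of that list was 0.90 and that of all genes -0.09. Among 8 filament kinases tested 3 were higher and 2 lower, beside 20.3% and 22.9% of all genes in this contrast. Cdk5r1, the activator of the kinase Cdk5 that phosphorylates neurofilaments, was 354 against 37.8 CPM (3.23), Cdk5 itself had a ratio of 1.06, and Rock1, which phosphorylates vimentin and GFAP, one of -2.09. Of the 6 regulators of Gfap 3 were lower and 1 higher: Sox9 had 0.863 against 376 CPM (-8.77) and Nfia -2.72, while Nfix had 1.59. In P2 striatal neurons 5 of the 6 regulators were lower and none higher (background 25.2% lower), as in E18 Lhx6 interneurons (20.8% lower). In E18 newborn and layer 6 or subplate neurons, and in P2 newborn, Lhx6 and caudal ones, 2 were higher and 2 lower, with Gfap lower than in stem cells in each. Between the ages, none of the 6 regulators was past 2-fold in stem cells, where Gfap had a log2 ratio of -0.09. Of the 3 linkers tested there 2 were higher at P2, beside 21.4% of all genes: Dst with 1.25 and Macf1 with 1.01, which tie filaments to microtubules and actin. In the EYFP contrast of stem cells and astrocytes no regulator of Gfap was past 2-fold either, and Cdk1 (-1.29) and Aurkb (-1.76), mitotic kinases that phosphorylate vimentin, were lower with EYFP. Cycling markers summed to 1063 CPM in maturing astrocytes, which made up 31 of the 49 cells without EYFP, and to 97.7 CPM in stem cells. The part of this makeup in the kinase and filament values was not tested.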

How the data were processed

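Single-cell RNA libraries of 1 E18 and 1 P2 preparation were analysed, each group holding 1 library, from the group labels. The authors deposited raw UMI counts for every gene in every barcode, made with Cell Ranger 4.0.0 per the file headers, against mm10 per the labels. The labels state neither cell calling, nor the strand setting, nor the number of animals. The files held 2922 E18 barcodes with 19986915 UMIs and 2778 P2 barcodes with 42572208 UMIs, so that P2 values carry less counting error.

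Cells with under 500 genes or over 10% mitochondrial UMIs were removed (291 at E18, 336 at P2). Scrublet's automatic threshold marked 7 and 4 cells and was not used; the 5% of cells with the highest doublet scores (135 and 146) were dropped. Each library was clustered with scanpy 1.11.5 in Python 3.11.15 (2000 variable genes without 15 filament genes, scaled, 30 components, 15 neighbours, Leiden resolution 1 with leidenalg 0.10.2) and clusters were named from 23 marker lists. An automatic scoring rule for names was settled, and one of 2 clustering procedures chosen, after clusters and member levels had been seen; the other procedure is given as an alternative. In P2, 26 ependymal cells were placed by their own markers.

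UMIs were summed by class and expressed as CPM, with exact Poisson 95% intervals and exact conditional intervals for ratios (scipy 1.17.1). They cover counting error within a library, not the spread between animals, and no p-value was computed. A gene counted as different past 2-fold with 10 or more UMIs over both groups. Where 1 group had 0 UMIs, the ratio was taken against 3 UMIs, and its interval can reach closer to no change than this ratio. For shares of cells, cells were also thinned to 3000 UMIs, leaving out 112 E18 and 117 P2 cells. TMM factors came from edgeR 4.0.16 in R 4.3.3. The calculations were checked on simulated counts. The members and gene lists were chosen with earlier results of these data known. Besides the 7 members, genes of 6 lists (37 genes) were named where past 2-fold with 50 CPM or more in 1 group, up to 3 a list by size, and for each member the 3 genes of most similar pattern over clusters (log2 of CPM + 10). Hopx, Aqp4, Pdgfra, Bcas1, Mbp, Mki67 and regulators within 2-fold were named after their values had been seen. Other filters, clusterings, scalings, depths and minimum counts were tried.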

Additional observations from a re-analysis of the deposited data

Results flagged for a closer look

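For 2 members the P2 to E18 ratio had opposite directions in different classes, each past 2-fold. Vim had a log2 ratio of -2.25 in oligodendrocyte precursors, against 1.41 in newborn excitatory neurons, 2.07 in Lhx6 interneurons and 1.53 in caudal interneurons. Among the oligodendrocyte precursors with a Pdgfra UMI the Vim ratio was -1.16. Ina had a log2 ratio of -1.04 in caudal interneurons, against 2.86 in cycling cells and 2.41 in oligodendrocyte precursors. The differences between classes were not tested, since each age had 1 library.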

How the results depend on the processing

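Each count of members past 2-fold is set against the count over the same contrasts as reported. For P2 against E18, a minimum of 50 UMIs left 12 of 20 past 2-fold, 10 of 17 higher. The lower count was 1 of 2 with a mitochondrial limit of 5%, and 0 of 1 both without a cell filter and with unscaled values, a clustering chosen after seeing the data. With EYFP, the total was 9 against 5 with doublets kept, 3 against 9 with cells thinned to 3000 UMIs and 3 against 9 with 50 UMIs. The higher count was 3 against 5 with the 5% mitochondrial limit, 9 against 5 with doublets kept, 0 against 8 with thinned cells, 3 against 8 with 50 UMIs and 5 against 8 without the highest cell of each group, also chosen after seeing the data. The lower count, 1 as reported, was 2 with filament genes allowed in the clustering, 3 with thinned cells, and 0 without a cell filter, with unscaled values and with 50 UMIs; with the 5% limit it was 1 against 0. Among values past 2-fold as reported, the direction changed for Nefm in P2 caudal interneurons over stem cells with unscaled values (log2 ratio -0.44) and for Ina with EYFP in pooled stem cells and astrocytes with the 5% limit (-0.44). Gfap in stem cells, within 2-fold, went from -0.09 to 0.59 at Leiden resolution 0.5 and to 0.38 with thinned cells. The causes were not tested. Some contrasts were not given by some alternatives, because a class was then too small or unnamed. No paired analysis was possible because each age had 1 library, and for the same reason no replicate could be left out. Nefh at either age, and Nefl, Nefm and Ina in stem cells, had few UMIs, and their ratios have wide intervals.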
